A study of Mus musculus with 4 samples.

Results

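The nuclear oxidative phosphorylation genes are the genes of the cell nucleus whose proteins make up, or help to assemble, the respiratory chain and the ATP synthase of mitochondria. They were taken as every symbol in the feature list that begins with Nduf, Uqcr, Cox4, Cox5, Cox6, Cox7, Cox8, Sdh or Atp5, without pseudogene symbols. The rule gave 96 of 28006 features: 36 subunits and 7 assembly factors of complex I, 4 subunits and 4 assembly factors of complex II, 8 genes of complex III, 20 of complex IV and 17 of complex V. Ndufa4 and Ndufa4l2 were counted with complex IV, where the Ndufa4 protein is now placed, and Atp5s and Atp5sl, which carry older ATP synthase names, stayed with complex V.

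The cells came from murine lung adenocarcinomas of 2 genotypes, and the series asks what the transcription factors Foxa1 and Foxa2 do in such tumours. KPF1F2 mice had Foxa1flox and Foxa2flox, KP mice had Foxa1flox/+ and Foxa2flox/+, and mice of both genotypes also carried Rosa-FSF-CreERT2, p53frt and KrasFSF-G12D, so that both genotypes hold floxed copies of each Foxa gene. All were of mixed 129/B6 strain. Tumours of both were started by an adenovirus (Ad5-mSPC-FlpO) in which the surfactant protein C promoter drives Flp recombinase, and in week 10 tamoxifen (120 mg/kg) was injected daily for 4 days to activate CreERT2, with collection of the tumours in week 12. Each genotype gave 1 library of all dissociated cells (pre-depletion) and 1 after magnetic removal of CD45-positive and CD31-positive cells (post-depletion), so there are 4 groups with 1 library each. With 1 library per group there were no replicates, and differences are given without p-values. The labels do not say how many mice went into a library, and the KPF1F2 pre-depletion library has a title with another serial prefix than the other 3, which cannot be told apart from genotype in the pre-depletion pair.

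Kept cells numbered 3377 in KPF1F2 pre-depletion, 3616 in KP pre-depletion, 2475 in KPF1F2 post-depletion and 3375 in KP post-depletion, with medians of 7061, 8163, 16412 and 9630 unique molecular identifiers (UMIs) per cell in that order. Pairs of libraries shared 0 to 4 cell barcodes. Epithelial-like cells, named from general epithelial markers, numbered 197, 789, 1887 and 3229, and had 805, 636, 843 and 801 CPM (a share of the class's summed UMIs, on a scale where all genes add up to 1e+06) of Epcam. Their leukocyte gene Ptprc was at 4.65 CPM in KPF1F2 and 6.52 CPM in KP pre-depletion, and at 0.448 CPM in KPF1F2 and 0.376 CPM in KP post-depletion. The engineered CreERT2 transcript was found in 53, 283, 578 and 924 of these cells. In the cells with such a UMI the feature Foxa1_2 was at 0.458 CPM in KPF1F2 and 18.3 CPM in KP pre-depletion, and at 0.446 CPM in KPF1F2 and 16.8 CPM in KP post-depletion. Another Foxa1 feature, Foxa1_1, went the other way in the same cells. It was at 9.15 CPM in KPF1F2 and 4.57 CPM in KP pre-depletion, and at 9.85 CPM in KPF1F2 and 2.15 CPM in KP post-depletion. Each Foxa2 feature had 0 to 4 UMIs per library in these cells, too few to compare. The files do not say which stretches of the genes these features cover.

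As background, complexes I and II pass electrons from NADH and succinate to ubiquinone, complex III passes them on to cytochrome c, and complex IV reduces oxygen. Complexes I, III and IV pump protons, and complex V, the ATP synthase, uses the gradient to make ATP. Most subunits are encoded in the nucleus, while the catalytic cores of complexes I, III, IV and V also contain 13 subunits encoded by mitochondrial DNA. Several complex IV subunits exist in a common form and in forms restricted to particular tissues, such as heart, muscle, testis or lung. Alveolar type 2 cells, the cells that make surfactant, and alveolar macrophages are both rich in mitochondria.

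Nuclear respiratory genes are known to share binding sites for a small set of transcription factors, among them nuclear respiratory factor 1 (NRF1). 3 promoters are therefore shown, of Atp5k and Cox6a1, which were among the members most raised in KPF1F2 epithelial-like cells, and of Cox7a2l, the member lowered most. Ndufa1, Ndufa3 and Ndufs6 ranked between Atp5k and Cox6a1 and are not shown. The 3 runs are examples and do not stand for raised or lowered members in general. Each run is the 250 bases before the RefSeq transcript start, along the gene, from the GRCm38.p6 table, at chr5:108434400-108434649, minus strand, chr5:115348959-115349208, minus strand, and chr17:83514334-83514583, minus strand. The GENCODE annotation places Cox7a2l at chr17:83501918-83517330, so its printed run lies inside that gene, and the annotated gene begins further upstream. Capitals mark the core NRF1 motif GCATGCGC on either strand, and in both of the first runs 2 overlapping copies on opposite strands join into a palindrome.
Atp5k: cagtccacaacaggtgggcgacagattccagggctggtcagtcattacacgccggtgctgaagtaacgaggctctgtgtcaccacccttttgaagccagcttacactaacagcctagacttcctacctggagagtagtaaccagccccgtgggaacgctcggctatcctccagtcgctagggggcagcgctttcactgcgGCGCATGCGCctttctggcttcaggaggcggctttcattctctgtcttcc
Cox6a1: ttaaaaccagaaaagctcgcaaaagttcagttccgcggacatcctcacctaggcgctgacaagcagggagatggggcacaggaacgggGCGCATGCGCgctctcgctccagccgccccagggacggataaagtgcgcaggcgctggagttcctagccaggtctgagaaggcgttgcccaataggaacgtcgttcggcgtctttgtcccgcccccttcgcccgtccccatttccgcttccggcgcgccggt
Cox7a2l: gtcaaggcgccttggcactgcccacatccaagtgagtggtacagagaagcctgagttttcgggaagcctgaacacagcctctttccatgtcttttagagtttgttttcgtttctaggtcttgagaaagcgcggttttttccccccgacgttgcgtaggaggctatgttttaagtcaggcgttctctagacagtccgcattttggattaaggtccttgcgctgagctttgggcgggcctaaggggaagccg
The first copy begins 50 bases before the start in Atp5k and 162 bases before it in Cox6a1. Of the 96 members 77 matched a promoter of 300 bases in that table (250 before and 50 after the start), and 12 of these 77, or 15.6%, held the core NRF1 motif, against 824 of 27025 genes, or 3.05%. The YY1 motif AAGATGGC was in 11.7% of the members' promoters and 3.19% of all, the ERRA motif AAGGTCA in 10.4% and 5.38%, and the ETS motif CCGGAAGT in 6.49% and 4.31%. No overlap between these motifs was removed. The core NRF1 motif was in 4 of 25 promoters of members called higher in KPF1F2 below, and in 6 of 43 promoters of the other members compared there. These matches are a description of letters and show no binding.

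The summed level of the 96 genes differed by cell class as well as by genotype. In KPF1F2 pre-depletion, epithelial-like cells had the highest sum of the 7 classes with at least 50 cells in both pre-depletion libraries, at 23331 CPM, or 2.33% of all UMIs. They were followed by alveolar macrophage-like (21801 CPM), T-like (21168 CPM), macrophage-like (20838 CPM), B-like (19924 CPM), endothelial-like (14937 CPM) and neutrophil-like cells (8666 CPM). In KP pre-depletion the order was alveolar macrophage-like (21908 CPM), macrophage-like (18547 CPM), epithelial-like (18205 CPM), T-like (17666 CPM), neutrophil-like (14941 CPM), B-like (14744 CPM) and endothelial-like cells (14397 CPM). The last 3 of the KP order lay close together, and the 95% counting intervals of neutrophil-like (14651 to 15236 CPM) and B-like cells (14487 to 15004 CPM) overlapped. In KP the epithelial-like cells thus came behind both macrophage classes, though close to the macrophage-like cells, and in KPF1F2 they came ahead of both. The KP epithelial-like sum includes shallow cluster 5, described below, with 104 KP cells at 5024 CPM and 0 KPF1F2 cells pre-depletion. The part of that cluster in the order was not tested. After depletion the sum was 21057 CPM in KPF1F2 and 16129 CPM in KP epithelial-like cells, and 14556 CPM in KPF1F2 and 15121 CPM in KP fibroblast-like cells. Intervals cover counting error only, and CPM are shares of a class's own UMIs, so a change in RNA per cell does not show in them. Plasmacytoid dendritic cell-like cells, with under 50 cells in every library, had 25356 CPM in 33 KPF1F2 cells and 20703 CPM in 12 KP cells pre-depletion.

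**Figure D1:**
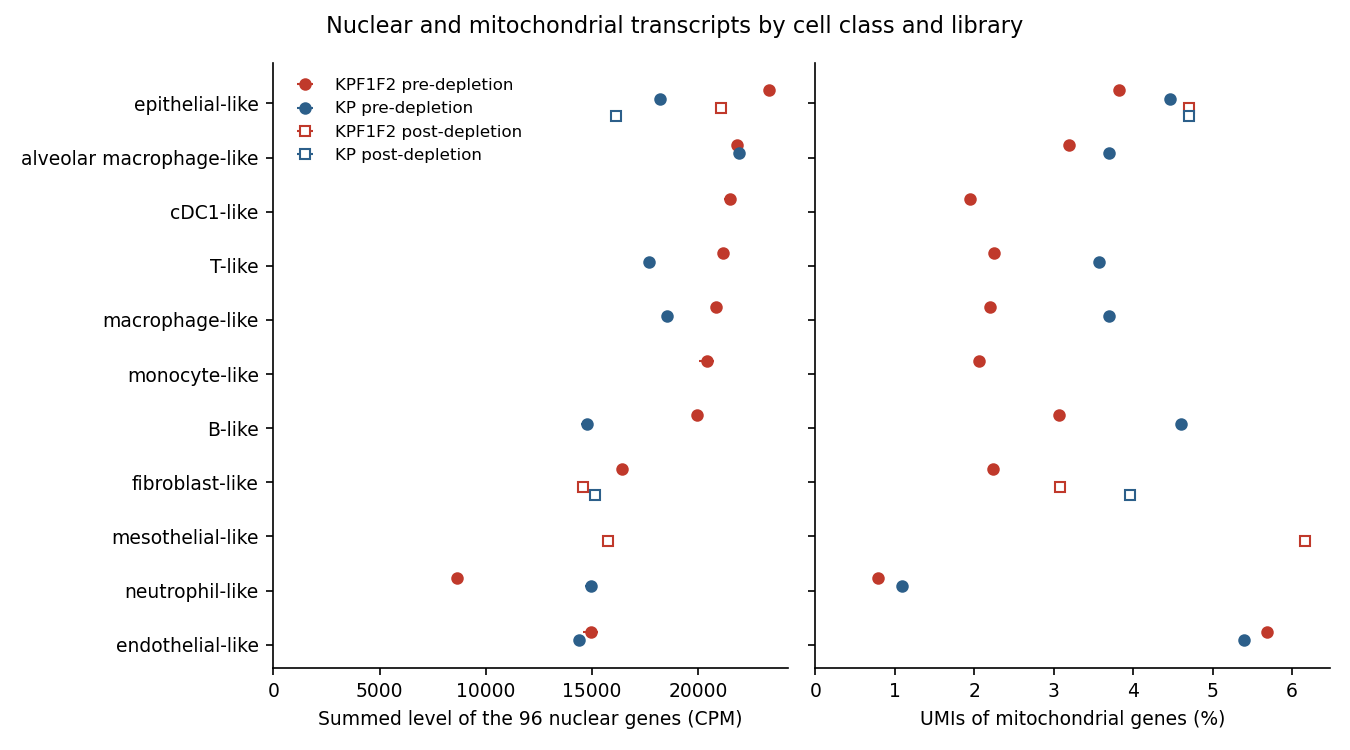
Left, summed CPM of the 96 nuclear genes; right, the share of UMIs from mitochondrial genes, in each cell class with at least 50 cells in a library. Filled circles are pre-depletion and open squares post-depletion libraries, red KPF1F2 and blue KP, and bars are 95% counting intervals, mostly shorter than the symbols. Epithelial-like cells sit higher in KPF1F2 than in KP in both states on the left (23331 and 18205 CPM, 21057 and 16129 CPM), while post-depletion mitochondrial shares are 4.70% in both.

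The mitochondrially encoded transcripts did not follow the nuclear ones across classes. Among cells at or under 20% and the 7 classes of the pre-depletion pair, their share of UMIs was highest in endothelial-like cells, at 5.68% in KPF1F2 and 5.40% in KP pre-depletion, where the nuclear sum was among the lowest. It was lowest in neutrophil-like cells, at 0.786% in KPF1F2 and 1.08% in KP. It was lower in KPF1F2 than in KP in every other class of the pre-depletion pair: 3.83% and 4.46% in epithelial-like, 3.20% and 3.70% in alveolar macrophage-like, 2.20% and 3.70% in macrophage-like, 2.25% and 3.57% in T-like, and 3.06% and 4.61% in B-like cells. In the post-depletion pair the epithelial-like share was 4.70% in KPF1F2 and 4.70% in KP. Cells above 20% had been left out. With no limit, the epithelial-like share was 4.998% in KPF1F2 and 7.13% in KP pre-depletion, and 5.60% in KPF1F2 and 7.38% in KP post-depletion. The limit removed 239 of 4662 barcodes in KPF1F2 and 625 of 5963 in KP pre-depletion, and 345 of 4415 in KPF1F2 and 1306 of 8536 in KP post-depletion.

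Alveolar macrophage-like cells stood apart by single genes. Cox5a, a nuclear subunit of complex IV, was at 904 CPM in KPF1F2 and 890 CPM in KP alveolar macrophage-like cells, against 420 and 341 CPM in the median class of the same libraries. Sdhd, a membrane anchor of complex II, was at 144 CPM in KPF1F2 and 162 CPM in KP, against class medians of 90.4 and 84.7 CPM. Cox4i1, the common form of the largest nuclear complex IV subunit, was at 1273 CPM in KPF1F2 and 1560 CPM in KP, against 887 and 930 CPM. The members lowest there against the median class, Sdhaf1, Ndufb11 and Ndufs8, differed from it by 0.31 or less on the log2 scale. In macrophage-like cells Cox5a (724 CPM in KPF1F2 and 665 CPM in KP) and Sdhd (135 and 145 CPM) were again high, as was Ndufb8 of complex I (262 and 287 CPM, class medians 189 and 171 CPM), and Ndufa4, described below, was low. Ndufb3 and Sdhaf1 lay within 0.17 (log2) of the median class.

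Lymphocyte-like cells shared an excess of Sdhaf1, an assembly factor of complex II that helps to insert iron-sulfur clusters. Sdhaf1 was at 63.2 CPM in KPF1F2 and 51.6 CPM in KP B-like cells and at 38.9 CPM in KPF1F2 and 126 CPM in KP T-like cells, against class medians of 21.5 and 32.1 CPM. B-like cells also had high Ndufaf4, a complex I assembly factor (45.4 CPM in KPF1F2 and 34.04 CPM in KP, medians 24.3 and 22.4 CPM), and Ndufb11 (292 and 271 CPM, medians 202 and 201 CPM). T-like cells had high Ndufv3 (203 CPM in KPF1F2 and 153 CPM in KP, medians 144 and 90.6 CPM) and Uqcrh, the hinge protein of complex III (881 and 654 CPM, medians 571 and 470 CPM). Low in both were Uqcr11, a small complex III subunit, at 184 CPM in KPF1F2 and 107 CPM in KP B-like and 171 and 128 CPM in T-like cells (medians 275 and 180 CPM), and Sdhc, the other anchor of complex II, at 41.97 and 32.9 CPM in B-like and 42.5 and 45.1 CPM in T-like cells (medians 53.8 and 60.4 CPM). Ndufa8 in B-like and Ndufc2 in T-like cells were each lower than the median class by at least 0.21 (log2) in both libraries.

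In endothelial-like cells the members furthest below the median class in both libraries, of those with a mean of at least 20 CPM, were Atp5f1, Atp5e and Ndufa13. Atp5f1, subunit b of the stator, was at 159 CPM in KPF1F2 and 195 CPM in KP (class medians 364 and 382 CPM), and Atp5e, subunit epsilon, at 445 CPM in KPF1F2 and 268 CPM in KP (801 and 473 CPM). Ndufa13 was at 153 CPM in KPF1F2 and 168 CPM in KP (306 and 287 CPM), while Ndufa8 was high, at 252 CPM in KPF1F2 and 235 CPM in KP (141 and 159 CPM). Ndufs1, the large iron-sulfur subunit of complex I, and Ndufaf2 were above the median class by at least 0.12 (log2) in both libraries. Neutrophil-like cells were low across most members. Ndufaf4 was at 1.84 CPM in KPF1F2 and 2.97 CPM in KP (medians 24.3 and 22.4 CPM), Atp5g2, a gene for subunit c of the rotor, at 77.4 CPM in KPF1F2 and 202 CPM in KP (541 and 567 CPM), and Ndufc2 at 16.6 and 66.9 CPM (148 and 174 CPM). Sdhd and Cox8a were the only 2 members above the median class in both neutrophil-like libraries among those with a mean of 20 CPM, Cox8a at 848 CPM in KPF1F2 and 1259 CPM in KP (839 and 589 CPM).

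Within the epithelial-like class the sum varied between clusters. Cluster 0, led by the surfactant and secretory genes Sftpa1, Retnla and Sftpc, was the only large cluster with cells of both genotypes, 46, 172, 382 and 479 in the order above. Its sum was 21401 CPM in KPF1F2 and 15843 CPM in KP pre-depletion and 19170 CPM in KPF1F2 and 13679 CPM in KP post-depletion. The CreERT2 transcript was nearly absent from cluster 0 of KPF1F2, with 0 UMIs pre-depletion and 6 UMIs, or 0.646 CPM, post-depletion, whereas cluster 0 of KP had 61 UMIs pre-depletion and 51 UMIs, or 11.1 CPM, post-depletion. Foxa1_2 was present there in both genotypes, at 21.2 CPM in KPF1F2 and 12.5 CPM in KP pre-depletion and at 13.9 CPM in KPF1F2 and 12.1 CPM in KP post-depletion. Of the smaller clusters, 24 and 30 also held cells of both genotypes, 12 and 7 in KPF1F2 and 33 and 4 in KP pre-depletion, and 30 and 9 in KPF1F2 and 58 and 32 in KP post-depletion. The other epithelial-like clusters held mostly cells of 1 genotype. Clusters 2 (Sftpd, Ager, S100g) and 9 (Krt7, Krt18, Krt8) were of KPF1F2 and had 21863 and 21094 CPM post-depletion, while clusters 1 (Sftpc, Gkn2), 6 (Krt18, Krt7) and 10 (Sftpa1, Sftpc) were of KP and had 17800, 15569 and 17118 CPM.

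Cluster 5, of KP, stood apart from all of these. It held 104 KP cells pre-depletion and 606 KP cells post-depletion, and 0 and 12 KPF1F2 cells, and its median depth was 0.283 of that of its libraries. The summed level was 5024 CPM pre-depletion and 5188 CPM post-depletion, mitochondrial transcripts took 10.0% and 11.2% of its UMIs, and the nuclear RNA Malat1 took 14.4% and 17.1%. Cluster 25, of alveolar macrophage-like cells, had like values, and had 5544 CPM in KPF1F2 and 7713 CPM in KP pre-depletion, with 13.1% and 12.6% mitochondrial UMIs. Clusters 11 and 26, also shallow, had sums of 17508 to 28110 CPM. The part that these shallow cells play in the genotype comparison is given beside it.

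Cells with and without a CreERT2 UMI were also set side by side, since the transcript marks cells in which the Flp-dependent allele was switched on. With such a UMI the sum was 25816 CPM in KPF1F2 and 19360 CPM in KP pre-depletion, and 21848 CPM in KPF1F2 and 17097 CPM in KP post-depletion. Without it the sum was 21506 CPM in KPF1F2 and 16143 CPM in KP pre-depletion, and 20179 CPM in KPF1F2 and 15187 CPM in KP post-depletion. The sum was higher with the UMI in all 4 libraries. Cells with the UMI were deeper in all 4, with medians of 32671, 32290, 33966 and 19522 UMIs against 17097, 7916, 12283 and 7313 UMIs without it, and the part of depth in this was not tested.

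The genotype comparison in epithelial-like cells used log2 folds of KPF1F2 over KP within a depletion state, with 1 CPM added to each side. Of the 96 members 81 passed a mean of 20 CPM over the 4 libraries, as did 5700 of all genes, and 2 members had no UMI in any epithelial-like cell. The members' median log2 fold was 0.38 in the pre-depletion pair and 0.36 in the post-depletion pair. All 5700 genes had medians of 0.08 and 0.07. The sum of all 96 was 1.28 times as high in KPF1F2 as in KP pre-depletion (95% counting interval 1.27 to 1.29) and 1.31 times post-depletion (1.30 to 1.31). Post-depletion over pre-depletion, the members' median was -0.16 in KPF1F2 and -0.15 in KP, where all genes had medians of 0.002 and 0.05. The members' median difference between genotypes was thus larger in size than that between states of one genotype.

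A member was called when its log2 fold was 0.5 or more with the same sign in both states. By that rule 30 of the 81 members were higher in KPF1F2, where 12% of all genes were, and 1 was lower, where 7.23% were. At a log2 fold of 1 or more 0 members were called in either direction, against 3.11% of all genes higher and 2.26% lower. The fold was positive in both states for 60 members, negative in both for 14 and of opposite sign for 7. Of all 5700 genes compared it was positive in both for 2629 and negative in both for 1831. The smaller of the 2 folds exceeded both same-genotype differences for 28 of the 30 higher members, a count with no share of all genes beside it. These members were selected for folds of 0.5 or more, and the members' median same-genotype difference was at most 0.16 in size. The count therefore follows largely from the selection and is no added support. Differences between states of one genotype also do not measure the spread between animals. When each cell was given equal weight 38 members were higher, 0 were lower, and the medians were 0.61 and 0.53. Without the shallow clusters 5, 11 and 26, whose median depth was 0.0814 to 0.283 of that of their libraries, 26 were higher and the medians were 0.35 and 0.32. The counts of these 2 settings have no share of all genes beside them. Over 18 settings the median of all genes ranged from -0.005 to 0.20 pre-depletion and from 0 to 0.12 post-depletion.

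The genotypes are also represented by different clusters (2 and 9 in KPF1F2, and 1, 5, 6 and 10 in KP), so the folds contain the difference between those clusters. In cells with a CreERT2 UMI 28 of 81 members were higher in both states and 0 lower, where 15.1% of all genes were higher and 6.67% lower, and the medians were 0.41 and 0.36 against 0.20 and 0.12 over all genes. In cluster 0 alone 28 of 79 members were higher and 0 lower, where 8.18% of all genes were higher and 2.03% lower, and the medians were 0.43 and 0.37 against 0.17 and 0.08. The ratio of sums was 1.35 (1.33 to 1.37) and 1.40 (1.39 to 1.41) in cluster 0, whose KPF1F2 cells almost lack the CreERT2 transcript, and 1.33 (1.32 to 1.35) and 1.28 (1.27 to 1.28) in cells that contain it.

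**Figure D2:**
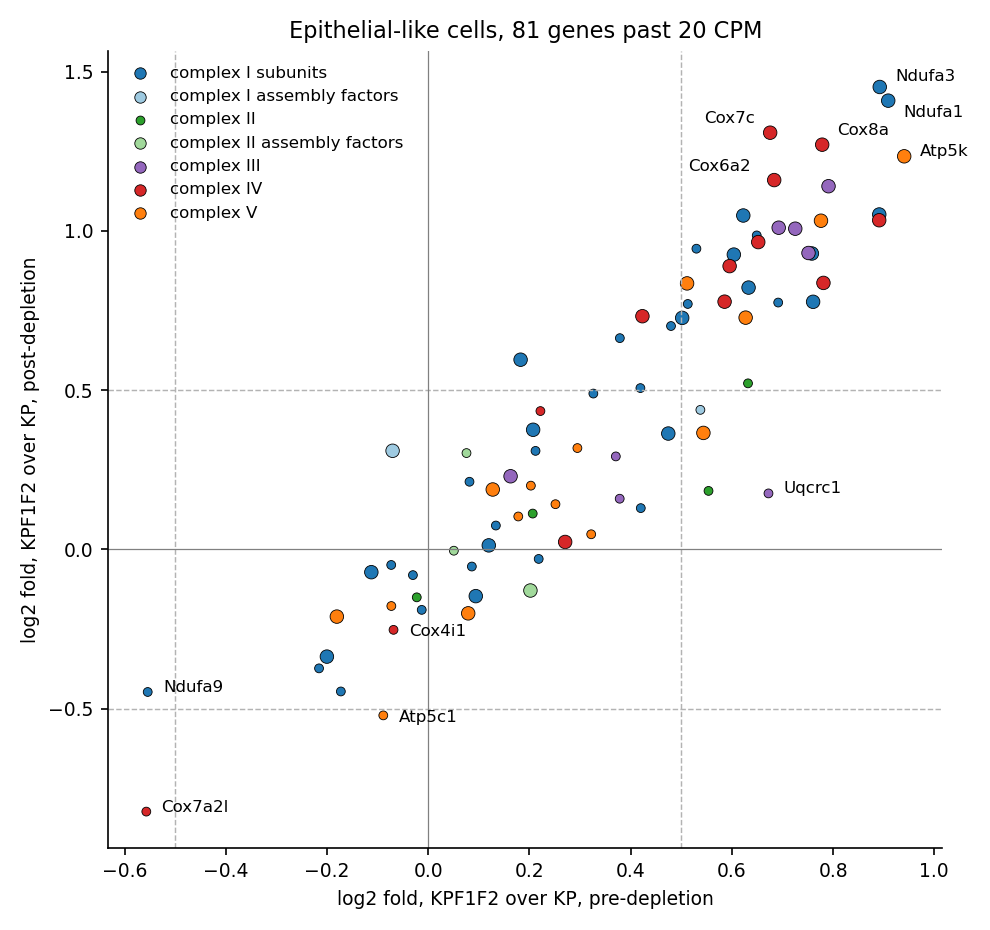
Log2 folds of KPF1F2 over KP in epithelial-like cells pre-depletion (x) and post-depletion (y) for the 81 members that passed 20 CPM, coloured by complex. Large symbols are genes with transcripts under 750 nt, and dashed lines mark 0.5. Members spread along the diagonal from Cox7a2l (-0.56, -0.82) to Ndufa3 (0.89, 1.45), and most of the points beyond 0.5 on both axes are large.

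Complex I, the NADH dehydrogenase, had 13 of 36 subunits higher and 0 lower, with a median of 0.35 pre-depletion and 0.43 post-depletion. Ndufa1, an accessory subunit of the membrane arm, was at 168 CPM in KPF1F2 and 88.9 CPM in KP pre-depletion, and at 137 CPM in KPF1F2 and 50.9 CPM in KP post-depletion. Both KPF1F2 libraries were thus above both KP libraries, with log2 folds of 0.91 (counting interval 0.80 to 1.04) and 1.41 (1.36 to 1.496). Ndufa3, another accessory subunit of that arm, was at 177 CPM in KPF1F2 and 95.1 CPM in KP, and at 157 CPM in KPF1F2 and 56.6 CPM in KP, with folds of 0.89 and 1.45. Ndufs6, an accessory subunit of the peripheral arm that binds zinc, was at 200 CPM in KPF1F2 and 107 CPM in KP, and at 179 CPM in KPF1F2 and 86.0 CPM in KP, with folds of 0.89 and 1.05. Ndufa7, the complex I subunit with the most UMIs, was called too, at 497 CPM in KPF1F2 and 320 CPM in KP, and 430 CPM in KPF1F2 and 243 CPM in KP.

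Of the 36 complex I subunits 8 had negative folds in both states, among them core subunits that carry the redox centres. Ndufs3, a core subunit, had 119 CPM in KPF1F2 and 138 CPM in KP, and 110 CPM in KPF1F2 and 142 CPM in KP, with folds of -0.22 and -0.37. Ndufa9, an accessory subunit next to the ubiquinone site, lay just outside the call, at 61.2 CPM in KPF1F2 and 90.4 CPM in KP and at 70.6 CPM in KPF1F2 and 96.6 CPM in KP, with folds of -0.55 and -0.45. Within cluster 0 its folds were 0.11 and 0.12, with 51.5 CPM in KPF1F2 and 47.7 CPM in KP, and 49.7 CPM in KPF1F2 and 45.7 CPM in KP. Ndufb9 had folds of -0.20 and -0.34, and Ndufa8 of -0.17 and -0.45, none past the call. Of the 7 assembly factors 2 passed 20 CPM, and Ndufaf3, the one with more UMIs, had folds of 0.54 and 0.44.

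Complex II, which has no mitochondrially encoded subunit, had 1 of 4 subunits higher. This was Sdha, the subunit that holds the flavin and oxidises succinate, at 93.4 CPM in KPF1F2 and 59.9 CPM in KP pre-depletion and 74.6 CPM in KPF1F2 and 51.7 CPM in KP post-depletion, with folds of 0.63 and 0.52. Sdhb, the iron-sulfur subunit, had folds of 0.21 and 0.11. Of the 4 complex II assembly factors 3 passed the minimum and 0 were called, Sdhaf4 having folds of 0.20 and -0.13.

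Complex III members, which by the symbol rule are the 8 Uqcr genes, all had positive folds in both states. Of these 4 were called, and the medians were 0.68 and 0.61. Cyc1, the cytochrome c1 subunit of complex III, is outside the rule and had folds of -0.02 and -0.33. Uqcrq, a small accessory subunit, was at 414 CPM in KPF1F2 and 239 CPM in KP, and at 396 CPM in KPF1F2 and 179 CPM in KP, with folds of 0.79 and 1.14. Uqcrb, Uqcr10 and Uqcr11, the other 3 called, had folds of 0.69 to 0.75 pre-depletion and 0.93 to 1.01 post-depletion. Uqcrh, the complex III gene with the most UMIs, had 0.16 and 0.23. Uqcrc1, a core subunit singled out after its values were seen, differed between states, at 0.67 pre-depletion and 0.18 post-depletion.

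Complex IV had 8 of 13 members higher and 1 lower, with medians of 0.60 and 0.84. Cox6a1, the common form of subunit VIa, was at 345 CPM in KPF1F2 and 185 CPM in KP pre-depletion, and at 322 CPM in KPF1F2 and 157 CPM in KP post-depletion, with folds of 0.89 (0.81 to 0.98) and 1.03 (1.00 to 1.08). Cox7a2 was at 471 CPM in KPF1F2 and 274 CPM in KP, and at 382 CPM in KPF1F2 and 213 CPM in KP, with folds of 0.78 and 0.84. Cox8a was at 875 CPM in KPF1F2 and 510 CPM in KP, and at 783 CPM in KPF1F2 and 324 CPM in KP, with folds of 0.78 and 1.27. In each of these the lower KPF1F2 library was above the higher KP library. Cox4i1, the complex IV member with the most UMIs, was on the other side, at 928 CPM in KPF1F2 and 974 CPM in KP, and at 919 CPM in KPF1F2 and 1095 CPM in KP, with folds of -0.07 and -0.25.

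Cox7a2l was the 1 member called lower. Its protein, related to Cox7a2, joins complexes III and IV into supercomplexes. The level was 280 CPM in KPF1F2 and 413 CPM in KP pre-depletion, and 269 CPM in KPF1F2 and 477 CPM in KP post-depletion. The folds were -0.56 (-0.64 to -0.48) and -0.82 (-0.86 to -0.79), so Cox7a2l and its relative Cox7a2 went in opposite directions. In cells with a CreERT2 UMI Cox7a2l had folds of -0.35 and -0.78 and in cluster 0 of -0.43 and -0.46, which ended the call in both. Outside the epithelium its fold was -0.52 in B-like, -0.28 in T-like and -0.29 in macrophage-like cells, -0.78 in neutrophil-like, -0.14 in endothelial-like and -0.08 in alveolar macrophage-like cells, and 0.03 in post-depletion fibroblast-like cells.

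Complex V, the ATP synthase, had 4 of 15 members higher and medians of 0.25 and 0.19. Atp5k, subunit e, which lies where 2 synthases meet as a dimer, was at 207 CPM in KPF1F2 and 107 CPM in KP pre-depletion, and at 183 CPM in KPF1F2 and 77.3 CPM in KP post-depletion, with folds of 0.94 (0.84 to 1.05) and 1.23 (1.19 to 1.30). Atp5e, Atp5j2 and Atp5l were the other 3 called. Among those not called, Atp5a1 and Atp5b, the alpha and beta subunits of the catalytic head, had folds of 0.32 and 0.05 and of 0.25 and 0.14, and Atp5d, the complex V gene with the most UMIs, 0.18 and 0.10. Atp5c1, the gamma subunit or central stalk, had folds of -0.09 and -0.52, Atp5o, the protein that confers sensitivity to oligomycin, of -0.07 and -0.18, and Atp5g2 of -0.18 and -0.21. Since 3 genes encode the same mature subunit c, Atp5g1, with folds of 0.30 and 0.32, and Atp5g3, with 0.08 and -0.20, are given beside Atp5g2.

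The called members were mostly short genes, so folds were set against transcript length (the median over protein-coding transcripts in GENCODE). Of 41 members under 750 nt 25 were higher in both states, with medians of 0.60 and 0.82, and of 40 longer members 5 were higher, with medians of 0.22 and 0.15. Other genes, cytosolic ribosomal protein genes left out, showed a smaller rise at the short end. Of 247 such genes under 750 nt 22.3% were higher, with medians of 0.23 and 0.18, and of 5255 longer ones 11.3% were, with medians of 0.08 and 0.07. Taken relative to other genes of like length, the members' medians were 0.25 and 0.27 and 18 were higher, a count with no share of all genes beside it. The 77 cytosolic ribosomal protein genes had medians of -0.40 and -0.24, with 1 higher and 24 lower. Of these, the 37 under 750 nt had medians of -0.25 and 0.02 and the 40 longer ones of -0.48 and -0.49. In cluster 0 the members under 750 nt had medians of 0.60 and 0.75 against 0.36 and 0.34 for other genes of that length. The part of transcript length, library preparation or RNA quality in these folds was not tested beyond these values.

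**Figure D3:**
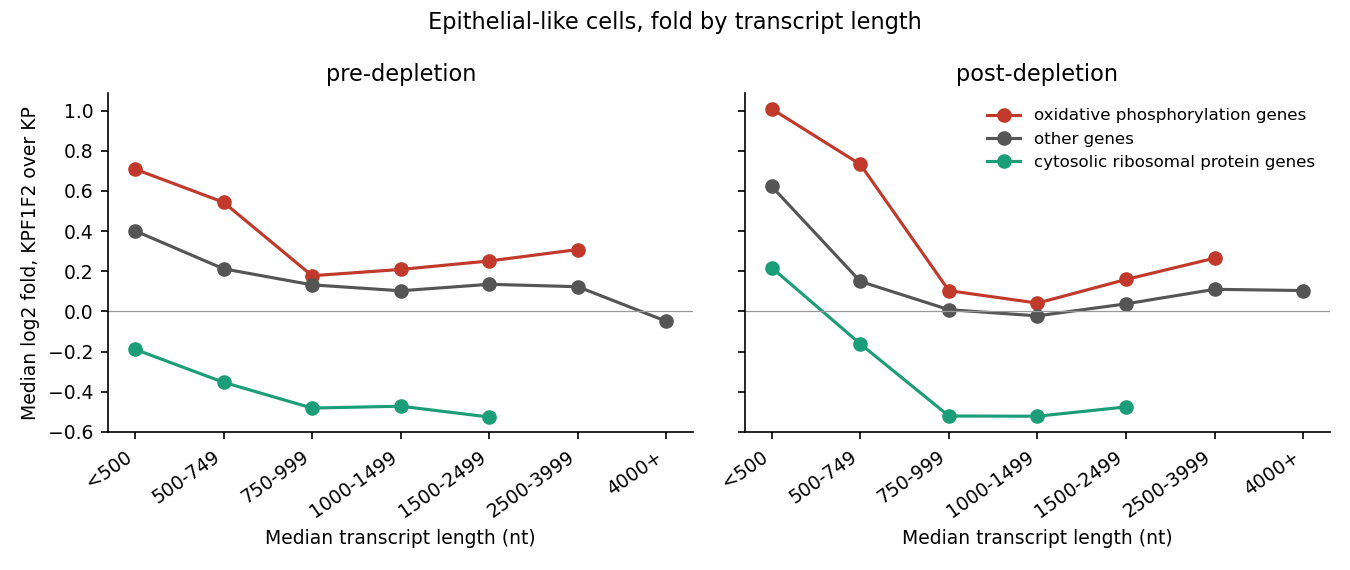
Median log2 fold of KPF1F2 over KP in epithelial-like cells by transcript length, pre-depletion (left) and post-depletion (right), for the oxidative phosphorylation genes (red), other genes (grey) and cytosolic ribosomal protein genes (green). Bins with under 4 genes are left out. Under 500 nt the members' medians are 0.71 and 1.01 and those of other genes 0.40 and 0.62, and from 750 to 1500 nt members and other genes lie within 0.13 of each other.

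The other gene lists of mitochondria were less uniform. Of the 13 mitochondrially encoded subunits 0 were called, with medians of -0.35 pre-depletion and 0.17 post-depletion. Several differed between the states. For mt-Nd6 the level was 9.88 CPM in KPF1F2 and 38.1 CPM in KP pre-depletion and 38.5 CPM in KPF1F2 and 36.3 CPM in KP post-depletion, and for mt-Nd5 it was 289 CPM in KPF1F2 and 685 CPM in KP, and 743 CPM in KPF1F2 and 717 CPM in KP. The KPF1F2 pre-depletion library alone was low in both. These 2 were singled out after their values were seen.

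Complex IV assembly genes had 4 of 12 higher and 0 lower (medians 0.37 and 0.24), among them the copper chaperone Cox17, at 154 CPM in KPF1F2 and 78.9 CPM in KP, and 117 CPM in KPF1F2 and 46.1 CPM in KP, and Pet100, at 93.0 CPM in KPF1F2 and 40.3 CPM in KP, and 82.4 CPM in KPF1F2 and 27.5 CPM in KP. The tricarboxylic acid cycle had 1 of 17 higher and 0 lower (0.26 and 0.24), which was Ogdh, a subunit of the oxoglutarate dehydrogenase, with folds of 0.85 and 0.83. Cytochrome c and electron entry had 1 of 9 higher and 0 lower (0.15 and 0.03), which was Gpd2, the mitochondrial glycerol phosphate dehydrogenase, with folds of 1.25 and 0.81. The mitochondrial ribosome had 4 of 70 higher and 1 lower (0.01 and -0.01), and import and cristae genes had 2 of 24 higher and 0 lower (0.11 and 0.05). Of 16 listed regulators 4 passed the minimum, 0 were higher and 1 was lower. This was Yy1, a transcription factor whose motif was counted above, at 108 CPM in KPF1F2 and 227 CPM in KP, and at 173 CPM in KPF1F2 and 272 CPM in KP.

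Other classes differed in direction. In T-like cells 14 of 82 members were higher and 2 lower, where 7.77% of all genes were higher and 11% lower, and in B-like cells 33 of 82 were higher and 2 lower, where 15.3% were higher and 18.1% lower. The sum in KPF1F2 over KP was 1.20 (1.19 to 1.21) in T-like and 1.35 (1.32 to 1.38) in B-like cells. Most B-like cells were of cluster 8, where the sum was 17516 CPM in KPF1F2 and 14032 CPM in KP. Cluster 34 (Jchain, Mzb1), with 28 KPF1F2 and 7 KP cells, had 27153 CPM in KPF1F2, and its part in the B-like ratio was not tested. In macrophage-like cells 9 of 81 members were higher and 1 lower, where 9.16% were higher and 12.5% lower, with a ratio of sums of 1.12 (1.12 to 1.13). By macrophage-like cluster the sums in KPF1F2 and KP were 21821 and 20790 CPM in cluster 14 and 17074 and 17008 CPM in cluster 17. In cluster 19 they were 21383 and 17654 CPM. In these 3 classes the members under 750 nt had medians of 0.43, 0.57 and 0.30 and the longer members of 0.03, 0.32 and -0.01, in the order T-like, B-like and macrophage-like.

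In alveolar macrophage-like cells 1 of 82 members was higher and 0 lower, where 8.31% of all genes were higher and 4.18% lower, although most cells were of cluster 7 in KPF1F2 (614 of 723) and of cluster 4 in KP (730 of 1030). The ratio of sums was 0.995 (0.991 to 1.00). The 1 member was Ndufa4, at 361 CPM in KPF1F2 and 233 CPM in KP. In endothelial-like cells 8 of 83 were higher and 11 lower, where 18.7% were higher and 15.1% lower. In post-depletion fibroblast-like cells 7 of 83 were higher and 10 lower, where 12.9% were higher and 22.9% lower, with a ratio of sums of 0.963 (0.947 to 0.978). Their clusters were 15 and 18. Cluster 18 (Dcn, Col3a1) held 253 KPF1F2 and 16 KP cells and had 14008 CPM in KPF1F2. Cluster 15 held 167 and 87 cells and had 15442 CPM in KPF1F2 and 15364 CPM in KP.

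Neutrophil-like cells went the other way, with 1 of 77 members higher and 67 lower, where 9.33% of all genes were higher and 51.8% lower. The sum was 8666 CPM in KPF1F2 and 14941 CPM in KP, a ratio of 0.580 (0.565 to 0.595). The class was made up differently: cluster 16 (S100a9, S100a8, Retnlg) held 302 of 523 KPF1F2 cells and 33 of 189 KP cells, and cluster 12 (Il1b, S100a9) held 221 and 156. Within cluster 16 the sum was 5758 CPM in KPF1F2 and 6540 CPM in KP, and within cluster 12 it was 13018 CPM in KPF1F2 and 16832 CPM in KP. Both clusters were thus lower in KPF1F2, by less than the whole class.

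The tissue forms of complex IV subunits were read by cell class. Cox6a2, the heart and muscle form of subunit VIa, was highest in plasmacytoid dendritic cell-like cells. It was at 1838 CPM in 33 KPF1F2 cells, where Cox6a1 was at 285 CPM, and at 968 CPM in 12 KP cells, where Cox6a1 was at 207 CPM. After thinning each cell to 2000 UMIs, 28 of 33 of those KPF1F2 cells, or 84.8% (exact interval 68.1 to 94.9), had a Cox6a2 UMI, against 0 of 376 B-like cells of that library, which allows a share of cells with a UMI at that depth of up to 0.798%, counting error only. Cox6a2 is among the leading genes of that cluster, which therefore tests nothing. The values say that in these cells the Cox6a2 form outnumbered the Cox6a1 form in UMIs.

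Cox6a2 was also present in part of the epithelium, at 58.7 CPM in KPF1F2 and 36.2 CPM in KP pre-depletion and at 35.9 CPM in KPF1F2 and 15.5 CPM in KP post-depletion. It divided the epithelial clusters. In cluster 0 it was at 169 CPM in KPF1F2 and 91.0 CPM in KP pre-depletion and 105 CPM in KPF1F2 and 66.7 CPM in KP post-depletion. In cluster 10 of KP, also led by surfactant genes, it was at 107 and 70.3 CPM, and in cluster 2 of KPF1F2 at 41.96 and 34.1 CPM. In clusters 1 and 6 of KP it was at 0.631 to 1.40 CPM, although cluster 1 is led by Sftpc as well, and in cluster 9 of KPF1F2 it was at 3.35 and 1.64 CPM. After thinning, 8 of 44 cells of cluster 0 had a Cox6a2 UMI in KPF1F2 pre-depletion and 21 of 170 in KP pre-depletion, against 1 of 143 cells of cluster 1 and 0 of 92 cells of cluster 6 in KP pre-depletion. Cox6a2 was 1 of 3 members among the 2000 genes used for clustering, with Cox4i2 and Ndufa4l2.

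Because Cox6a2 followed the clusters, its genotype fold depended on the cells compared. The folds over all epithelial-like cells were 0.68 and 1.16, and in cluster 0 they were 0.89 and 0.64. In cells with a CreERT2 UMI Cox6a2 was at 19.7 CPM in KPF1F2 and 24.2 CPM in KP pre-depletion and at 13.3 CPM in KPF1F2 and 6.499 CPM in KP post-depletion, with folds of -0.29 and 0.93. The common form Cox6a1 had folds of 1.04 and 1.04 in those same cells. In cluster 0 Cox6a1 was higher in KPF1F2 as well, at 286 CPM in KPF1F2 and 170 CPM in KP pre-depletion.

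**Figure D4:**
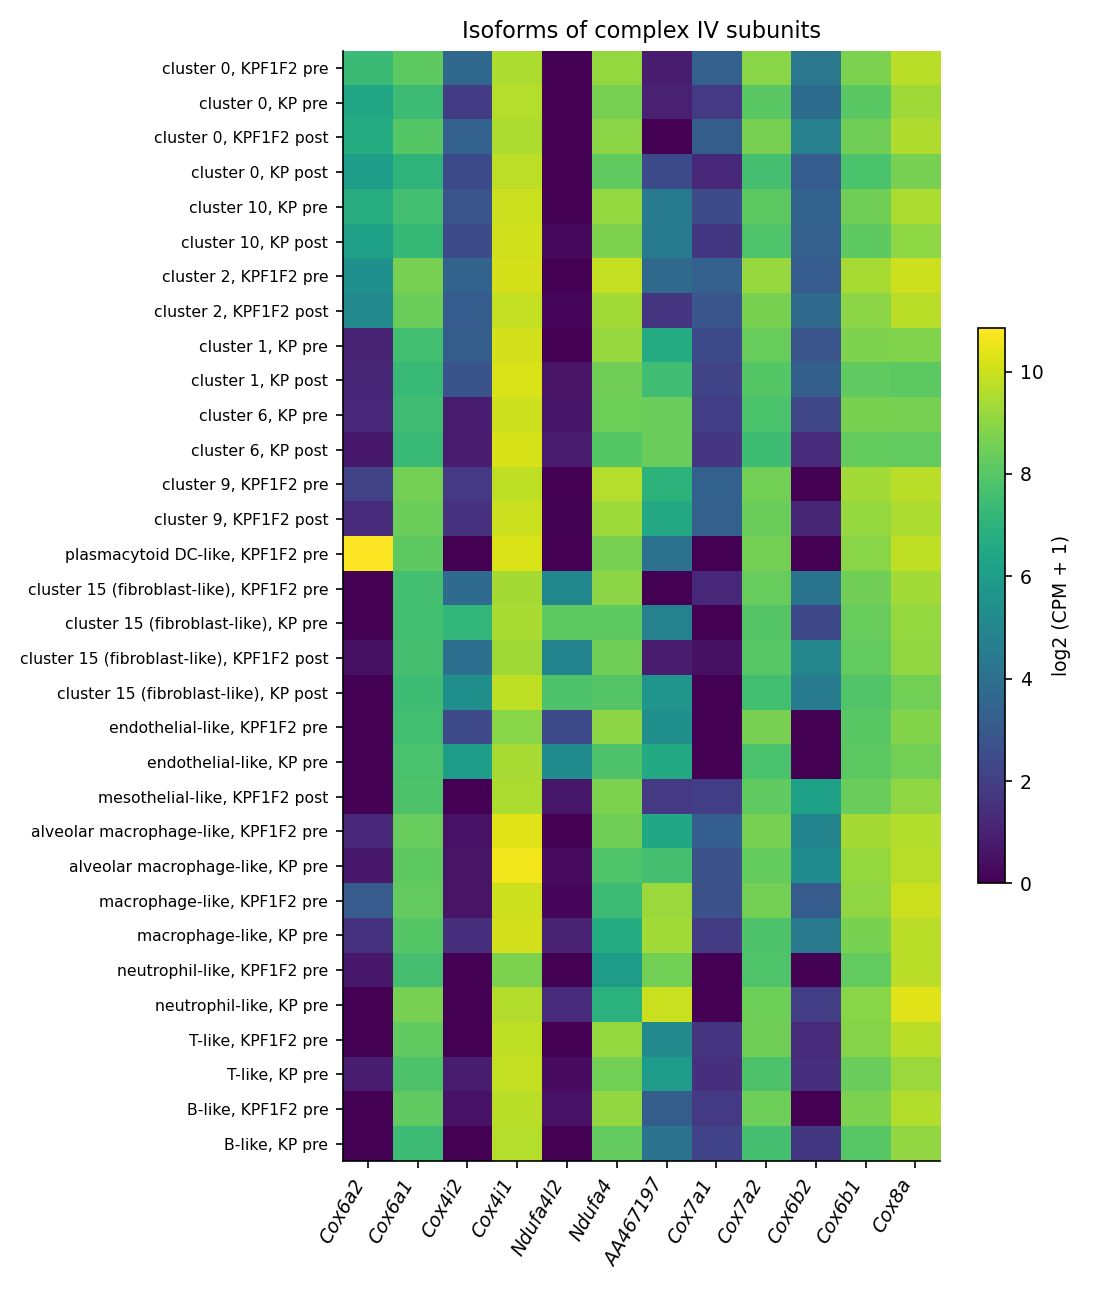
Levels of complex IV subunit forms and of AA467197 as log2 (CPM + 1) by cluster or class and library, for sums of at least 20 cells. Cox6a2 is bright in plasmacytoid dendritic cell-like cells (1838 CPM), moderate in clusters 0, 10 and 2 and dark elsewhere. In cluster 15 of KP pre-depletion Cox4i2 is at 145 CPM and Ndufa4l2 at 280 CPM, and Ndufa4 is dim where AA467197 is bright.

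Cox4i2, the lung form of subunit IV, and Ndufa4l2, a relative of Ndufa4 known as a target of hypoxia signalling, were both found in fibroblast-like cluster 15, which is led by Mgp, Col3a1 and Sparcl1 and contains the pericyte genes Rgs5, Kcnj8 and Notch3. Cox4i2 was at 12.7 CPM in 51 KPF1F2 cells and 145 CPM in 34 KP cells pre-depletion, and at 14.5 CPM in 167 KPF1F2 cells and 41.1 CPM in 87 KP cells post-depletion. Ndufa4l2 was at 32.5 CPM in KPF1F2 and 280 CPM in KP pre-depletion, and at 28.7 CPM in KPF1F2 and 225 CPM in KP post-depletion. Both genes were lower in both KPF1F2 libraries than in both KP libraries. Rgs5 differed the same way, at 26.8 CPM in KPF1F2 and 1136 CPM in KP, and at 37.6 CPM in KPF1F2 and 146 CPM in KP, whereas Kcnj8 was at 59.3 CPM in KPF1F2 and 137 CPM in KP, and at 91.3 CPM in KPF1F2 and 36.2 CPM in KP. Fewer pericytes in the cluster and less RNA per pericyte cannot be told apart.

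In endothelial-like cells Cox4i2 was at 4.30 CPM in KPF1F2 and 67.2 CPM in KP pre-depletion, and Ndufa4l2 at 4.30 CPM in KPF1F2 and 36.0 CPM in KP. Rgs5 was at 4.30 CPM in KPF1F2 and 32.1 CPM in KP, and Pdgfrb at 0 CPM in KPF1F2 and 18.5 CPM in KP, in the same cells. After thinning, Cox4i2 had a UMI in 0 of 68 KPF1F2 and 2 of 121 KP endothelial-like cells. In the epithelium Cox4i2 was at 7.94 CPM in KPF1F2 and 4.73 CPM in KP pre-depletion and 5.86 CPM in KPF1F2 and 3.25 CPM in KP post-depletion. The common form Cox4i1 was between 421 and 1560 CPM in the 7 classes.

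The remaining forms were rare. Cox6b2, the testis form of subunit VIb, was at 29.0 CPM in KPF1F2 and 38.0 CPM in KP alveolar macrophage-like cells and at 71.8 CPM in 110 mesothelial-like cells of KPF1F2 post-depletion, where the common form Cox6b1 was at 660, 560 and 332 CPM in that order. Cox7a1, the heart and muscle form of subunit VIIa, was at 8.72 CPM in KPF1F2 and 4.06 CPM in KP epithelial-like cells pre-depletion and at 7.91 CPM in KPF1F2 and 2.65 CPM in KP post-depletion. Cox7b2 and Cox8b had no UMI in epithelial-like cells, and Cox8b was at 8.21 CPM in 93 KPF1F2 fibroblast-like cells pre-depletion. Cox8c, a testis form, had a level of 0.0514 CPM in KP epithelial-like cells pre-depletion and 0 in the other 3 libraries. The common form Cox7b was at 262 CPM in KPF1F2 and 225 CPM in KP pre-depletion and 256 CPM in KPF1F2 and 189 CPM in KP post-depletion.

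Ndufa4, a subunit of complex IV, was low in several classes of myeloid cells. It was at 174 CPM in KPF1F2 and 104 CPM in KP macrophage-like cells, at 62.6 CPM in KPF1F2 and 122 CPM in KP neutrophil-like cells, and at 107 CPM in 29 KPF1F2 and 79.0 CPM in 20 KP migratory dendritic cell-like cells. In T-like cells it was at 561 CPM in KPF1F2 and 375 CPM in KP, and in B-like cells at 547 CPM in KPF1F2 and 297 CPM in KP. The low classes were those with high AA467197, the mouse counterpart of human C15orf48 (NMES1), a protein known to take the place of Ndufa4 in complex IV of inflamed cells. AA467197 is not a member and was chosen after its values were seen. It was at 587 CPM in KPF1F2 and 641 CPM in KP macrophage-like, 371 CPM in KPF1F2 and 996 CPM in KP neutrophil-like, and 838 CPM in KPF1F2 and 671 CPM in KP migratory dendritic cell-like cells. T-like and B-like cells had 8.22 to 62.6 CPM of it.

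Among macrophages the pair split by cluster. In cluster 14 (Ccl17, C1qa) Ndufa4 was at 178 CPM in KPF1F2 and 82.6 CPM in KP, with AA467197 at 637 and 995 CPM, and in cluster 19 (Mmp12, Spp1) Ndufa4 was at 123 CPM in KPF1F2 and 82.4 CPM in KP, with AA467197 at 742 and 795 CPM. In cluster 17 (C1qa, C1qb, C1qc) Ndufa4 was at 305 CPM in KPF1F2 and 138 CPM in KP, with AA467197 at 40.4 and 221 CPM. In neutrophil-like cluster 16 both were lower than in cluster 12, with Ndufa4 at 44.0 CPM in KPF1F2 and 48.6 CPM in KP and AA467197 at 141 and 308 CPM, so the inverse pattern did not hold between these clusters.

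In the epithelium AA467197 was at 50.4 CPM in KPF1F2 and 113 CPM in KP pre-depletion and at 36.3 CPM in KPF1F2 and 187 CPM in KP post-depletion, while Ndufa4 was at 733 CPM in KPF1F2 and 466 CPM in KP, and at 604 CPM in KPF1F2 and 309 CPM in KP. Cluster 6 of KP, which had the highest AA467197 of the large KP clusters (328 and 333 CPM), had Ndufa4 at 344 and 252 CPM, and cluster 10 of KP, with 21.2 and 21.9 CPM of AA467197, had Ndufa4 at 565 and 426 CPM. Across 48 sums of a cluster in a library with at least 50 cells, Spearman's rho between the 2 genes was -0.51. It was -0.59 over 41 sums without the shallow clusters 5, 11, 20 and 26 and without cluster 25, whose member sum was low. Cluster 16 of KPF1F2 pre-depletion, also low with a member sum of 5758 CPM, stayed in, with Ndufa4 at 44.0 CPM and AA467197 at 141 CPM. Within single libraries rho was -0.68 over 14 sums in KPF1F2 pre-depletion, cluster 16 among them, and -0.36 over 18 sums in KP pre-depletion. These points share libraries and cell classes, and the values are a description. In cluster 0 AA467197 was at or under 4.33 CPM in all 4 libraries, and Ndufa4 still was at 552 CPM in KPF1F2 and 387 CPM in KP pre-depletion and at 490 CPM in KPF1F2 and 291 CPM in KP post-depletion, so that the genotype difference in Ndufa4 was present where AA467197 was nearly absent.

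**Figure D5:**
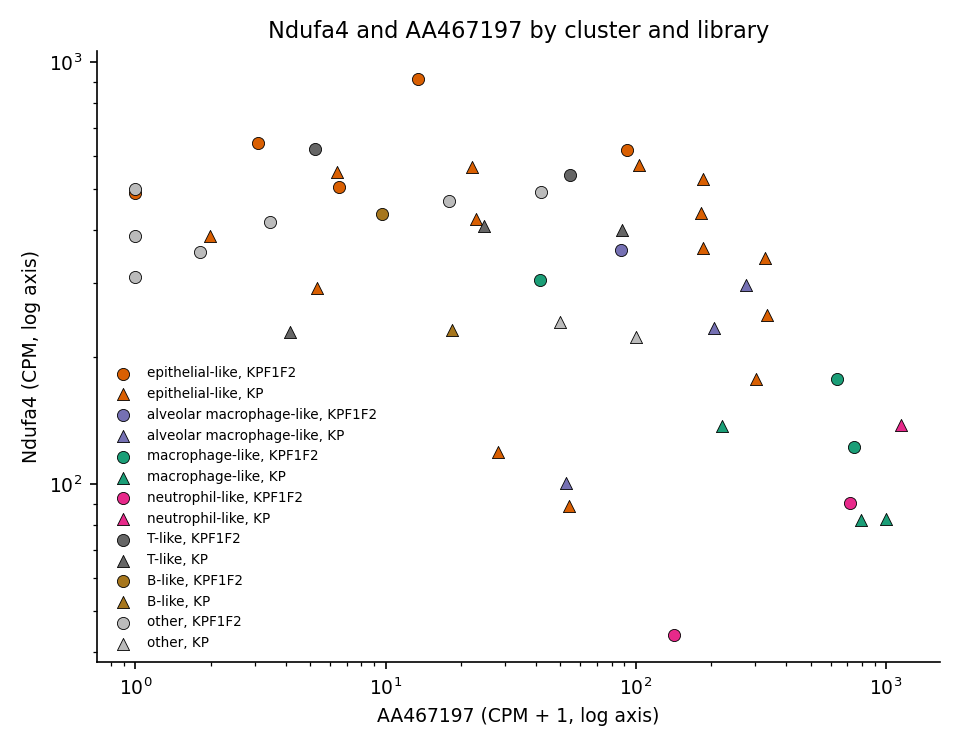
Ndufa4 (CPM, y, log axis) against AA467197 (CPM + 1, x, log axis) for each cluster and library with at least 50 cells, with circles for KPF1F2 and triangles for KP, coloured by class. Sums with the most AA467197, of macrophage-like and neutrophil-like cells, lie at 82.4 to 178 CPM of Ndufa4, whereas epithelial-like and T-like sums with little AA467197 reach 916 CPM.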

How the data were processed

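Tumour cells of 4 libraries were measured by 10x 3' single-cell RNA sequencing. The deposited matrices hold counts of unique molecular identifiers (UMIs) per gene and cell barcode, and the headers of the deposited files name Cell Ranger 6.0.0. The submitters' processing notes give mm10 as the genome build. Strand use in counting is not given in the sources used here, and 44 of 96 members overlap another annotated gene. Total counts per library were 47805086 to 63010016.

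Everything further was computed from these counts. Barcodes with at least 1000 UMIs, 500 genes and at most 20% mitochondrial UMIs were kept. Scrublet marked only 0 to 3 barcodes per library and was judged not to have worked, so the barcodes with the highest scores were removed instead, at 0.8% of kept barcodes per 1000 barcodes in a library (91 to 247 per library). Cells were clustered on 2000 variable genes and 30 components (scanpy 1.11.5, Leiden, resolution 1), and classes were named from marker lists, so a difference from the study may come from rebuilt names. UMIs were summed per class and library and divided by the total (CPM). Intervals are exact Poisson for CPM, conditional binomial for ratios and Clopper-Pearson for shares, at 95%, and cover counting error only. Thinned cells were drawn to 2000 UMIs, leaving out shallower ones. Transcript lengths and overlaps came from GENCODE vM21.

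The members, gene lists and tests were chosen with earlier results of these data known. Genes named were the tissue forms of complex IV subunits, the 8 members with the largest positive and the 8 with the largest negative fold by the smaller of both states, the member with most UMIs per complex, and up to 3 members each way per class. Every other gene named was chosen after its values were seen. Alternatives in normalization used edgeR 4.0.16 and DESeq2 1.42.0 in R 4.3.3, for size factors only, and the calls were tested on simulated data.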

Additional observations from a re-analysis of the deposited data

Results flagged for a closer look

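The ratio of the summed level in KPF1F2 over KP differed in direction between cell classes. In epithelial-like cells it was 1.28 pre-depletion and 1.31 post-depletion. In alveolar macrophage-like cells pre-depletion it was 0.995, in neutrophil-like cells pre-depletion 0.580 and in fibroblast-like cells post-depletion 0.963. These drew attention because the sum was higher in KPF1F2 in one class and lower in another under the same comparison. With 1 library per group the difference was not tested. The neutrophil-like class held cluster 16 mostly in KPF1F2 (302 and 33 cells), and the fibroblast-like class held cluster 18 mostly in KPF1F2 (253 and 16 cells). Within fibroblast-like cluster 15 the post-depletion sums were 15442 CPM in KPF1F2 and 15364 CPM in KP, so the lower sum was not seen there. The part of clusters 16 and 18 in the ratios was not tested beyond the values within each cluster.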

How the results depend on the processing

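Of 30 members higher and 1 lower in KPF1F2 epithelial-like cells, the count lower was 0 with no limit on mitochondrial UMIs, with equal weight per cell, in cells with a CreERT2 UMI only and in cluster 0 only. Equal weight per cell gave median folds of 0.61 pre-depletion and 0.53 post-depletion, against 0.38 and 0.36, and log2 ratios of the sums of 0.61 and 0.57, against 0.36 and 0.38. Relative to genes of like transcript length 18 members were higher. Signs turned for Cox6a2 pre-depletion in cells with a CreERT2 UMI (-0.29) and for Ndufa9 in cluster 0 (0.11 and 0.12). The causes were not tested. TMM factors gave 24 members higher and DESeq2 size factors 25. These counts, like the like-length count, have no share of all genes beside them. The like-length, cluster 0 and shallow-cluster settings were chosen after seeing the data. Of the values that answer a comparison 97 stayed within the spread between states of one genotype, or within 1.5 times for counts, and 9 moved. Of the others 843 stayed, 70 moved and 3 turned. No paired analysis was made, and each depletion state was compared within itself. With 1 library per group no replicate could be left out. Low-level forms such as Cox8c rest on 1 UMI and cannot be compared at this depth.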
